A study of Arabidopsis thaliana with 36 samples.

Results

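RNA levels just below a graft junction were compared between 2 genotypes of Arabidopsis thaliana, a mutant labelled dof quadruple and the wild-type accession Col-0. The comparison takes the 3 dof quadruple and the 3 Col-0 rootstock libraries, 6 of the 36 in the series. Loci numbered AT4G00000 to AT4G19999 of chromosome 4 are counted apart because strain variation is likely there. They are 2710 of the 33341 loci in the table, and are called the chromosome 4 block here. Seedlings were 7 days old, and 1 cotyledon had been removed from every plant. Rootstock tissue was the 0.5 mm of hypocotyl below the junction, taken 24 h after the hypocotyls had been cut across and the cut ends of different plants joined. The uncut (intact) hypocotyls of both genotypes and their scions (the hypocotyl above the junction) serve as reference points. So do the rootstocks of the mutants labelled erf114,115 and anac071,096, with 3 biological replicates in each group. Intact pieces were 1 mm long and scion pieces 0.5 mm, so intact tissue and rootstock differ in the length of hypocotyl sampled. The labels give the genotype of each library, but neither that of the partner on the other side of the junction nor the lesions of dof quadruple. That the mutant is hit in HCA2, TMO6, DOF2.1 and DOF6 is general knowledge of this line. It is 1 mutant line, so all its differences from Col-0, linked or not, go with the name.

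DOF proteins are plant transcription factors with a single zinc finger that binds DNA around a short AAAG core. Several of them act in the vascular cylinder, where they promote divisions of procambial and cambial cells downstream of auxin, cytokinin and the TMO5-LHW pair. After a cut, hypocotyl cells swell, divide and rebuild walls until the xylem and phloem strands of both sides meet, and the rootstock is the side cut off from the sugars and auxin of the shoot.

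The 6 libraries held 20.9 to 26.1 M counts (M is the prefix mega), and CPM below means counts per M counts after scaling of library sizes. Col-0 rootstock replicate 1 stood apart from the rest. It had counts at 2514 loci that no other library of the series touched, 8530 counts in all, against at most 34 such loci in each of the other 35 libraries. Seed storage and oil-body genes were among the loci read mainly there, and they were picked out after their values had been seen. PAP85, a seed storage protein, had 106.1 CPM in that library and at most 0.336 CPM in the other 5. OLEO1, an oil-body oleosin, had 70.9 CPM there and at most 0.0523 CPM elsewhere. Of 17 loci above 10 CPM in that library and below 1 CPM in the other 5, 14 were called lower in dof quadruple, and 1 was called without that library. Results that rest on this library are therefore given with and without it.

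Marker lists described what the 6 libraries held. Photosynthesis genes summed to 69867 to 80336 CPM in Col-0 and 57717 to 71672 CPM in dof quadruple, and all 26 had a change below 0 of which 0 passed. Markers of phloem (772 to 1019.9 CPM in Col-0, 779.6 to 832 in dof quadruple), cambium (778 to 822 and 698 to 796) and xylem (85.1 to 139.8 and 109.9 to 134) overlapped between genotypes. Root hair markers, which should be missing from a hypocotyl piece, summed to at most 0.65 CPM, and 0 of the 7 could be tested. Epidermis and stomata markers stood at 974 to 1106 CPM in Col-0 and at 1178 to 1499 CPM in dof quadruple, without overlap, although 0 of 12 tested members passed. Over all tested loci 3.73% passed, so 0 calls among the photosynthesis or epidermis members is not a result about those lists. Endodermis and suberin markers differed most and are described further on.

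Of the 4 DOF genes, 3 passed the test and all 3 were lower in dof quadruple. DOF6 (AT3G45610, chromosome 3, 16739247-16740546), best known as a factor of seed dormancy, was nearly unread in the mutant. Its CPM was 1.5, 2.18 and 1.68 in the Col-0 libraries and 0, 0 and 0.0467 in dof quadruple. That is 114 counts against 1, a CPM ratio of 123.5 with a 95% counting interval of 21.7 to 4920, which checks the labels of these libraries.

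TMO6 (AT5G60200, chromosome 5, 24240810-24242523), a target of the auxin response factor MONOPTEROS, had 196.3, 176.9 and 256.5 CPM in Col-0 and 60.5, 84.05 and 81.9 in dof quadruple. The groups were far from overlapping, with a log2 change of -1.47 ± 0.19 (SE, adjusted p = 4.8e-06). Adjusted p-values here come from two-sided quasi-likelihood tests in edgeR, adjusted by Benjamini-Hochberg over the 19476 loci tested, and a gene passed under 0.05. DOF2.1 (AT2G28510, chromosome 2, 12199075-12200780), which acts downstream of TMO5 and LHW, had 405, 386.9 and 441.7 CPM in Col-0 and 129.1, 150.3 and 164.3 in dof quadruple, a change of -1.48 ± 0.25 (adjusted p = 0.000234). HCA2 (AT5G62940, chromosome 5, 25256852-25258704), a regulator of interfascicular cambium, had 36.3, 35.4 and 46.8 CPM in Col-0 and 45.5, 55.3 and 57.3 in dof quadruple. The HCA2 groups overlapped, and its change of 0.42 ± 0.19 did not pass (adjusted p = 0.291). TMO6 and DOF2.1 also averaged below Col-0 in the other mutants. TMO6 averaged 132.1 ± 41.9 CPM in erf114,115 rootstocks and 46.7 ± 4.58 in those of anac071,096, and DOF2.1 averaged 212.3 ± 58.6 and 192.2 ± 36.3 CPM. Summed over the 4 genes, rootstocks had 601.4 to 746.7 CPM in Col-0, 235.2 to 303.5 in dof quadruple, 264.1 to 463.5 in erf114,115 and 202.7 to 276.5 in anac071,096, so every library of the 3 mutants lay below every Col-0 library. Reads outside a lesion are still counted, so levels of TMO6, DOF2.1 and HCA2 do not check the label.

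The genotype difference of DOF2.1 had another direction in uncut tissue. In intact hypocotyls it stood at 14.5 ± 4.22 CPM in Col-0 and 32.4 ± 5.27 in dof quadruple (SD, n = 3), and the difference between the 2 genotype effects was -2.63 ± 0.35 (adjusted p = 2.6e-05). HCA2 differed between the 2 sides of the junction: the mutant scion had 82.5 ± 8.83 CPM against 23.6 ± 3.11 in Col-0, and the rootstock effect was 1.39 smaller on the log2 scale (-1.39, adjusted p = 0.0171). Of 21 other DOF family genes that could be tested, 0 passed, where 3.73% of all tested loci did. The one with the highest level, OBP4, had 211 ± 11.2 CPM in Col-0 and 152.5 ± 21.4 in dof quadruple (adjusted p = 0.156).

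**Figure D1:**
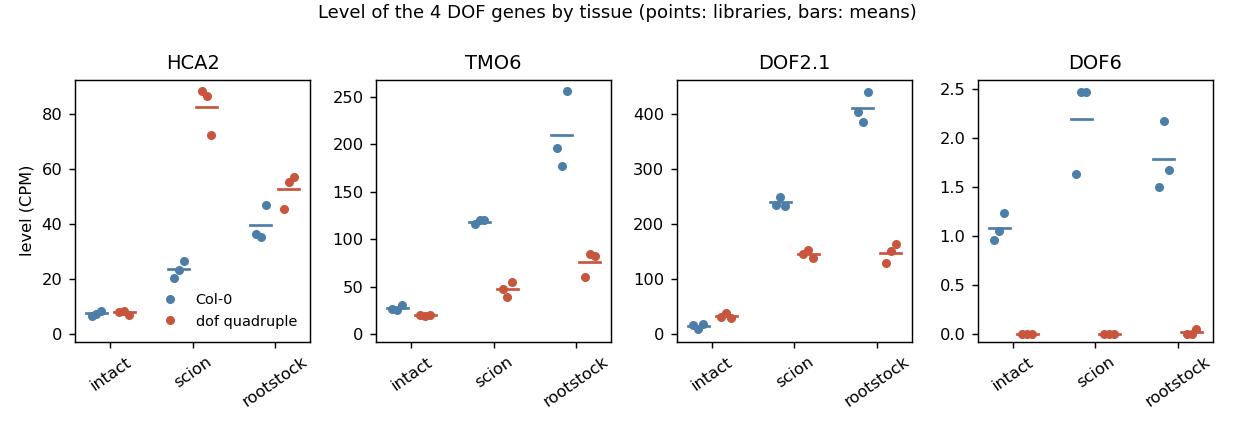
Level in CPM of the 4 DOF genes in intact, scion and rootstock tissue of Col-0 (blue) and dof quadruple (red); points are libraries and bars are means of 3. In the rootstock, TMO6, DOF2.1 and DOF6 of dof quadruple lie below every Col-0 library, while HCA2 overlaps.

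Of the 19476 tested loci, 727 were called between the rootstocks (3.73%), 320 higher (1.64%) and 407 lower (2.09%) in dof quadruple. In the chromosome 4 block 179 of 1316 tested loci were called (13.6%), 71 higher (5.4%) and 108 lower (8.21%). Outside it 548 of 18160 were called (3.02%), 249 higher (1.37%) and 299 lower (1.65%). The balance of directions outside the block turned with upper-quartile scaling (287 higher, 275 lower), in the compared groups alone (274 and 236) and without dof quadruple rootstock replicate 2 (137 and 124), and it was 160 higher and 319 lower without Col-0 rootstock replicate 2. Without Col-0 rootstock replicate 1 there were 137 calls in the block and 360 outside it, and 43 and 222 of the calls made with it were lost. Without dof quadruple rootstock replicate 2 the counts were 115 and 261, and without dof quadruple rootstock replicate 1 they were 136 and 359. In each of the 6 fits that leave out 1 of these libraries, 101 calls of the block (7.67% of its tested loci) and 186 of the other loci (1.02%) were made.

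Called differences had a median size of 1.81 on the log2 scale in the block and 1.40 outside it. A change of at least 2-fold was seen in 137 block calls (10.4% of tested loci) and 370 other calls (2.04%). In 18 block calls and 26 others the 3 dof quadruple libraries had 0 counts, and in 2 and 7 the Col-0 libraries did. The 6 libraries did not overlap between genotypes at 37.5% of the tested block loci and 21.3% of the others.

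Calls were spread over most of the block and stopped near its end. Among its 18 windows of 1000 locus numbers with at least 20 tested loci, a median of 14.97% of loci were called. The share was 26.5% in the window starting at AT4G05000 and 25.4% at AT4G11000, then 9.2% at AT4G17000, 0% at AT4G18000 and 4.17% at AT4G19000. The rest of the chromosome had 2.23% (AT4G20000 to AT4G29999) and 2.01% (AT4G30000 to AT4G39999). Elsewhere the 243 windows had a median of 2.30%.

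The block was not the only stretch dense in calls. Outside it 15 of the 243 windows with at least 20 tested loci had at least 8% of them called. Together they held 125 of 864 tested loci (14.5%), which is 22.8% of the calls outside the block, and the remaining 17296 loci had 423 calls (2.45%). The densest of these were the windows starting at AT2G14000 (33.3%), AT1G44000 (25.9%), AT2G15000 (25.6%), AT3G26000 (24.7%) and AT1G35000 (24.2%). In intact hypocotyls, which share no library with the rootstocks, the same 5 windows had 30.3%, 33.3%, 23.3%, 21.2% and 21.2% of loci called. Genes described below that lie in such windows are CYP71B19, CYP71B4, CYP71B26, PAD3, AOC1, AOC2, SIAR1, TLP6, AGP2, NTRA, LTP and PIP1A. Others lie in windows just under the 8% cutoff. ATPMEPCRD and IBH1, which are neighbours, and UGT74F2 lie in the window starting at AT2G43000 (7.06%, and 10.6% in intact tissue). NSP4 lies in the window starting at AT3G16000 (7.14% in both tissues). RAP2.6, also described below, lies in the window starting at AT1G43000, where 1 of 24 tested loci was called (4.17%). That window stands next to the dense one starting at AT1G44000. Whether strain variation sets the levels of any of these genes was not tested.

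**Figure D2:**
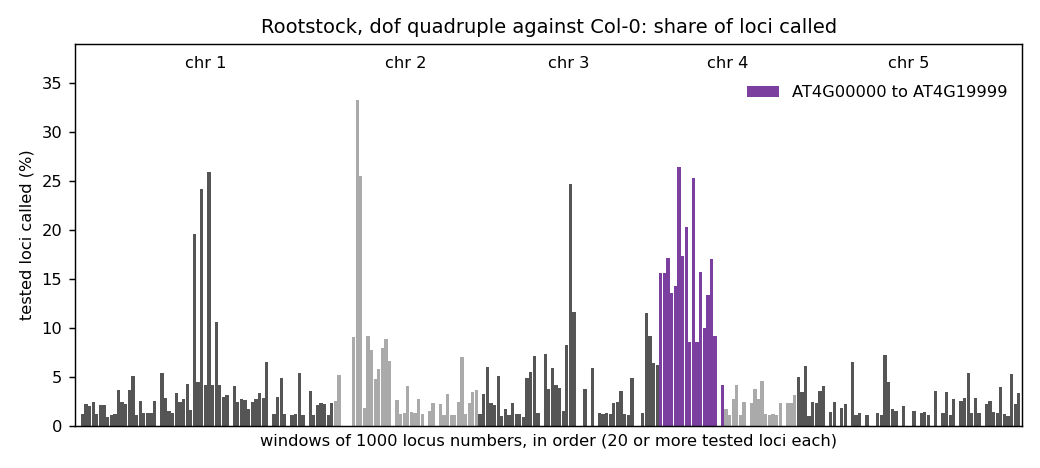
Percent of tested loci called between dof quadruple and Col-0 rootstocks, in windows of 1000 locus numbers in order along the 5 chromosomes (shades separate chromosomes, the chromosome 4 block in purple). Purple bars reach 26.5% and end with the block, and separate dense windows stand on chromosomes 1, 2 and 3, up to 33.3%.

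Inside the block, the named genes included immune receptors, enzymes of specialised metabolism and housekeeping genes. CYP705A1, a cytochrome P450 (AT4G15330), had 0.45, 0.443 and 0.504 CPM in Col-0 and 16.3, 16.4 and 18.2 in dof quadruple, a change of 5.18 ± 0.45 (adjusted p = 2.4e-09). CRK41, a cysteine-rich receptor-like kinase, rose from at most 1.34 CPM in Col-0 to at least 20.3 CPM (4.54 ± 0.52). Allantoinase, ALN, which opens the ring of allantoin in purine breakdown, had 36.3, 25.1 and 30.3 CPM in Col-0 and 160.3, 113.8 and 110.1 in dof quadruple (2.07 ± 0.24). All libraries of the mutant lay above all of Col-0 for these genes, which was a condition for naming block genes by size of change. EDA21 (1.38 ± 0.25) and the polyubiquitin gene UBQ14 (1.30 ± 0.23) were also higher.

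SNC1 (AT4G16890, chromosome 4, 9500271-9505972), an immune receptor of the TIR-NB-LRR class, had 120.2, 139.1 and 98.6 CPM in Col-0 and 8.42, 15.9 and 8.5 in dof quadruple. This is a change of -3.44 ± 0.39 (adjusted p = 5.5e-07). RLM3, a TIR-domain resistance gene nearby, fell by 2.26 ± 0.33, from 45.4 ± 12.3 to 9.43 ± 3.37 CPM. The locus annotated as a 7SL RNA, AT7SL-1, fell from 22.2 ± 7.15 to 0.198 ± 0.172 CPM (-6.90 ± 0.57), and the P450 gene CYP706A7 from 11.9 ± 0.73 to 1.24 ± 0.138 CPM (-3.26 ± 0.33). SWEET17, a vacuolar fructose transporter, fell from 18.4 ± 3.92 to 4.22 ± 0.675 CPM (-2.12 ± 0.27).

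Some of these loci have near-identical copies beside them or overlapping partners, and the strand setting of the counting is not known, so reads may be split. SNC1 and RLM3 lie in a cluster of related receptors whose members RPP4 and RPP5 did not pass (-1.15 ± 0.48 and -1.05 ± 0.40, adjusted p = 0.227 and 0.181). UBQ14 is close in sequence to UBQ10, which was looked up after the UBQ14 value had been seen. UBQ10 (AT4G05320) fell from 4621 ± 521 to 1215 ± 164 CPM (-1.93 ± 0.21, adjusted p = 1.6e-07), opposite in direction to UBQ14.

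Of 8 loci listed for known variation among Arabidopsis strains, all of them in the block, 6 were tested and 4 passed, 2 higher and 2 lower, where 13.6% of the tested block loci were called. The list's median was -1.1, against -0.0081 over all tested loci. AOP3, a dioxygenase that modifies glucosinolate side chains and is read in some strains and silent in others, had 2 counts in the 3 Col-0 rootstocks and 236 in those of dof quadruple. The CPM ratio was 108.9, with a 95% counting interval of 29.8 to 904.7. Its level in dof quadruple was 255.2 ± 93.6 CPM in intact hypocotyls and 17.5 ± 4.88 in scions, against at most 0.0452 CPM on average in Col-0. AOP3 had 0 counts in the rootstocks of erf114,115 and anac071,096. AOP1, its neighbour, had 1.65 ± 1.21 CPM in Col-0 and 5.22 ± 1.19 in dof quadruple (1.68 ± 0.41, adjusted p = 0.0136, and 0.105 without Col-0 rootstock replicate 1). FRI, which delays flowering in strains that carry a working copy, fell from 2.98 ± 0.765 to 0.543 ± 0.223 CPM (-2.46 ± 0.41).

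Rootstocks of erf114,115 and anac071,096 were set beside the called loci. Both of their means lay nearer to the Col-0 mean than to the dof quadruple mean at 167 of the 179 block calls (93.3%) and at 434 of the 548 others (79.2%). These shares are descriptive, because the loci were chosen for a gap between Col-0 and dof quadruple. SNC1 had 137.6 CPM in erf114,115 and 134.3 CPM in anac071,096, both above the Col-0 mean of 119.3 CPM. GH9B3, described below, stood at 59.4 ± 21.7 CPM in erf114,115 and 89.8 ± 20.7 in anac071,096, between the means of dof quadruple (42.6 CPM) and Col-0 (139.3 CPM). These differences of the other mutants from Col-0 were not tested here.

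Of the genes higher outside the block that met the naming conditions (a call in the full fit and in each fit without 1 library, at least 10 CPM in a group and no overlap), the 15 with the largest changes are described next. RCI3, a cold-inducible peroxidase (AT1G05260), had 1.3, 0.685 and 1.01 CPM in Col-0 and 13.7, 11.7 and 8.54 in dof quadruple (3.52 ± 0.59, adjusted p = 0.000237). AGP31, an arabinogalactan protein of vascular cell walls (AT1G28290), had 9.9, 6.57 and 12.4 CPM in Col-0 and 50.3, 61.5 and 72.9 in dof quadruple (2.68 ± 0.30, adjusted p = 3.2e-07). In both genes every mutant library lay above every Col-0 library, as the naming conditions required. In the rootstocks of erf114,115 and anac071,096, RCI3 averaged 1.04 and 0.671 CPM and AGP31 averaged 7.81 and 24.9 CPM.

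Also higher were ATPMEPCRD, of the pectin methylesterase family (1.66 ± 0.789 to 10.2 ± 3.56 CPM), and BGAL5, a beta-galactosidase (9.78 ± 0.887 to 31.8 ± 5.91). So were the transporter genes ABCG35 (2.42 ± 0.40), the nitrate exporter NAXT1 (1.61 ± 0.20) and the amino acid exporter SIAR1 (2.02 ± 0.34). NAXT1 (chromosome 3, 16758877-16761430) lies close to DOF6, which ends at 16740546. Its change was 1.59 in intact tissue (adjusted p = 1.4e-06) and 0.45 in scions (adjusted p = 0.577). Whether its place beside DOF6 sets its level was not tested. CCH, a copper chaperone, had 32.1, 23.9 and 28.4 CPM in Col-0 and 99.2, 102.9 and 89.2 in dof quadruple, a change of 1.79 ± 0.27. IBH1, a bHLH protein that represses cell elongation, rose by 2.02 ± 0.27, and GASA6, a gibberellin-regulated peptide gene, by 2.40 ± 0.51.

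BGLU18, a beta-glucosidase of endoplasmic reticulum bodies that frees abscisic acid from its glucose ester, rose from 7.73 ± 3.5 to 44.1 ± 15.2 CPM (2.51 ± 0.52). TSA1, its neighbour on chromosome 1 and likewise tied to these bodies, rose from 4.3 ± 0.923 to 14.5 ± 0.512 CPM, and NSP4, a nitrile specifier protein, from 12.8 ± 5.19 to 39.5 ± 8.13 CPM. The sulfotransferase gene ST4C (1.81 ± 0.33) and the P450 gene CYP71B19 (3.14 ± 0.38) completed the 15 named in this direction, out of 33 that met the same conditions.

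Lower genes outside the block were named by the same conditions. RAP2.6, an ethylene response factor induced by wounding (AT1G43160), had 32.9, 55.8 and 59.8 CPM in Col-0 and 8.15, 3.51 and 6.68 in dof quadruple. The change was -3.03 ± 0.41 (adjusted p = 1.2e-05), and -3.25 without Col-0 rootstock replicate 1. GH9B3, a cellulase known for its part in joining walls at graft junctions (AT1G71380), had 136.8, 129.8 and 151.3 CPM in Col-0 and 45.2, 45.4 and 37.2 in dof quadruple (-1.71 ± 0.25, adjusted p = 4.1e-05). AGP2, an arabinogalactan protein (AT2G22470), had 104.2, 125.5 and 109.6 CPM in Col-0 and 20.07, 16.8 and 15.2 in dof quadruple (-2.71 ± 0.27, adjusted p = 5.1e-08). For all 3 genes every mutant library lay below every Col-0 library, as the naming conditions required.

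RAP2.6 was also lower in the uncut mutant. It had 50.7 ± 8.75 CPM in intact Col-0 and 4.86 ± 3.93 in intact dof quadruple, a change of -3.37 (adjusted p = 1.5e-06), and the difference of the 2 effects was 0.35 ± 0.55 (adjusted p = 0.992). GH9B3 was almost unread in intact tissue, at 0.0889 ± 0.0744 CPM in Col-0 and 0.017 ± 0.0294 in dof quadruple. In the scion it stood at 119.6 ± 20.3 CPM in Col-0 and 45.7 ± 7.88 in dof quadruple (-1.39, adjusted p = 0.000869), so both sides of the junction had less of it in the mutant.

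Among the genes that met the naming conditions outside the block, the polyamine transporter gene PUT1 had the most negative change. It had 27.6, 23.2 and 25.4 CPM in Col-0 and 3.03, 2.19 and 1.96 in dof quadruple (-3.41 ± 0.35, adjusted p = 5.1e-08). GRL, a subunit of the SCAR/WAVE complex that nucleates actin, fell from 36.9 ± 5.58 to 3.48 ± 2.72 CPM, and it was also lower in intact (-2.02) and scion tissue (-3.34). NTRA, a thioredoxin reductase, fell from 248.3 ± 27.6 to 78.3 ± 11 CPM, and the aquaporin gene PIP1A from 1910 ± 192 to 789.9 ± 136 CPM. UGT74F2, which attaches glucose to salicylate, had 103, 104.4 and 98.95 CPM in Col-0 and 46.3, 32.9 and 41.6 in dof quadruple (-1.34 ± 0.22). CYP71B4 (-2.38 ± 0.36), CYP71B26 (-2.34 ± 0.31), CYP89A9 (-1.65 ± 0.33), AGP17 (-1.57 ± 0.29), TLP6 (-1.33 ± 0.27) and the lipid transfer protein gene LTP (-1.26 ± 0.17) made up the rest of the 15 named, with TMO6, out of 24 that met the conditions. The CYP71B genes form a cluster of close copies with changes in both directions, so their single values are uncertain.

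The 250 bases before the annotated start of 4 of these genes are shown because DOF factors bind an AAAG core and these genes differed between a DOF mutant and wild type. The sequences are from the RefSeq TAIR10.1 assembly, written 5′ to 3′ on the strand of the gene, with AAAG and its reverse complement CTTT in capitals. RAP2.6 (plus strand, chr1:16263555-16263804), GH9B3 (minus strand, chr1:26901977-26902226) and AGP2 (minus strand, chr2:9538964-9539213) were lower in the mutant, and AGP31 (minus strand, chr1:9891016-9891265) was higher.
RAP2.6: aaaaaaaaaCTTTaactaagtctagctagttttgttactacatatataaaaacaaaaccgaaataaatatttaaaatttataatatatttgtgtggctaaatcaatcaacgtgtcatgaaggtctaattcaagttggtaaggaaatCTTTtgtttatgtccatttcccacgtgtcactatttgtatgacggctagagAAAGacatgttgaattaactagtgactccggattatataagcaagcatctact
GH9B3: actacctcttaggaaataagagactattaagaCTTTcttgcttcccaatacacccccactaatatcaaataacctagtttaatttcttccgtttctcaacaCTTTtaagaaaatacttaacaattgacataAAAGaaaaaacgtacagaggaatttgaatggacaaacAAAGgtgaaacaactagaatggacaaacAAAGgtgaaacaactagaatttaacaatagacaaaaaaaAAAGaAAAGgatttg
AGP2: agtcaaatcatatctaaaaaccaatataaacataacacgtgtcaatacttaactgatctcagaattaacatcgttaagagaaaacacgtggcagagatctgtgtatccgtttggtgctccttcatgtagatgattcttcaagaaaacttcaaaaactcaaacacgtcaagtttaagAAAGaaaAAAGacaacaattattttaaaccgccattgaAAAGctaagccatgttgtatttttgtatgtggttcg
AGP31: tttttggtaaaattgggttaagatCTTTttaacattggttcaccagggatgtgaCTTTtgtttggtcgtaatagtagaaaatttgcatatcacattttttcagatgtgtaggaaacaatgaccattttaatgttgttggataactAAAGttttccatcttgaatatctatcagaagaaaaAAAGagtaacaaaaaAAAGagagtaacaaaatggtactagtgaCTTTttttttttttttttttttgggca

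RAP2.6 had 3 matches, GH9B3 had 7, AGP2 had 3 and AGP31 had 6, and overlapping matches were counted separately. Such matches are common. Of 19325 tested nuclear loci, 98.0% held AAAG or CTTT in the same window, with a median of 4 matches. Outside the block, the 295 loci lower in dof quadruple with a window in the reference averaged 4.00 ± 2.39 matches (SD), the 247 higher ones 4.08 ± 2.01 and the 17467 not called 4.14 ± 2.15. A match describes the letters in the window and is not a binding site.

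Genes that mark the endodermis, the cell layer around the vascular cylinder with its lignified Casparian strip, were the list with the highest median change of the 25 lists with a tested member. Of 12 tested members 3 were higher (CASP4, CASP5 and ASFT) and 0 were lower, against 1.64% and 2.09% of all tested loci. The median log2 change was 3.23 against -0.0081 over all tested loci. CASP4 (AT5G06200, chromosome 5, 1877134-1878324), a scaffold protein of the Casparian strip membrane domain, had 1.35, 1.33 and 1.12 CPM in Col-0 and 18.2, 34 and 22.5 in dof quadruple (4.29 ± 1.13, adjusted p = 0.0267). CASP5 (AT5G15290) had 1.3, 3.02 and 2.01 CPM in Col-0 and 33.8, 42.6 and 26.7 in dof quadruple (4.01 ± 1.1, adjusted p = 0.0331). ASFT, which makes the ferulate esters of suberin, had 18.2, 15.4 and 5.82 CPM in Col-0 and 73.1, 93.7 and 72.6 in dof quadruple (2.6 ± 0.71, adjusted p = 0.0341). In these genes no library of the mutant came near any of Col-0.

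Other members had changes as large and did not pass. CASP1 had 6.4, 4.03 and 7.78 CPM in Col-0 and 212.1, 237.6 and 183.7 in dof quadruple, with an adjusted p of 0.0679. CASP2 and the peroxidase gene PER64 had log2 changes of 4.49 ± 1.39 and 3.86 ± 1.30 (adjusted p = 0.0715 and 0.107). MYB36, the factor that switches CASP genes on, stood at 32.3 CPM in Col-0 and 73.9 CPM in dof quadruple on average (adjusted p = 0.369). SCR, a regulator of endodermal identity, was at 30.7 and 28.6 CPM and its libraries overlapped (adjusted p = 0.925). Of the 12 tested members 9 had a change above 0. Those below 0 were ESB1 (-1.50, adjusted p = 0.557), FAR1 (-1.09, adjusted p = 0.113) and SCR (-0.10). The CASP genes are close relatives, and reads may be split among them.

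How many passed differed between fits. With a replicate block, tried because the replicate numbers may pair samples, 8 of the 12 were higher, CASP1 included (adjusted p = 0.0254). That fit called 423 loci higher and 521 lower in all. In a fit of the 6 libraries alone, 8 of 10 tested members were higher and 1 was lower, beside 344 loci higher and 330 lower in all. In the 6 fits that each leave out 1 rootstock library, 0 or 1 passed. DESeq2 called 1, beside 441 loci higher in all, and a fit with no filter on low counts called 0, beside 261.

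The summed level of the endodermis list was 122 to 158.5 CPM in Col-0 rootstocks and 677.5 to 911 CPM in those of dof quadruple. It was 104.6 to 294 CPM in erf114,115 rootstocks and 90.1 to 181.5 CPM in anac071,096 rootstocks. In intact tissue dof quadruple also stood above Col-0, at 157.4 to 390.6 CPM against 53 to 62.5 CPM. In scions the ranges overlapped, at 68.6 to 118.6 CPM and 88 to 107.6 CPM. In bulk tissue, more cells of a type and more RNA per cell cannot be told apart. The summed epidermis markers were also higher in every mutant library than in every Col-0 library, as given above, and their part in the result was not tested.

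**Figure D3:**
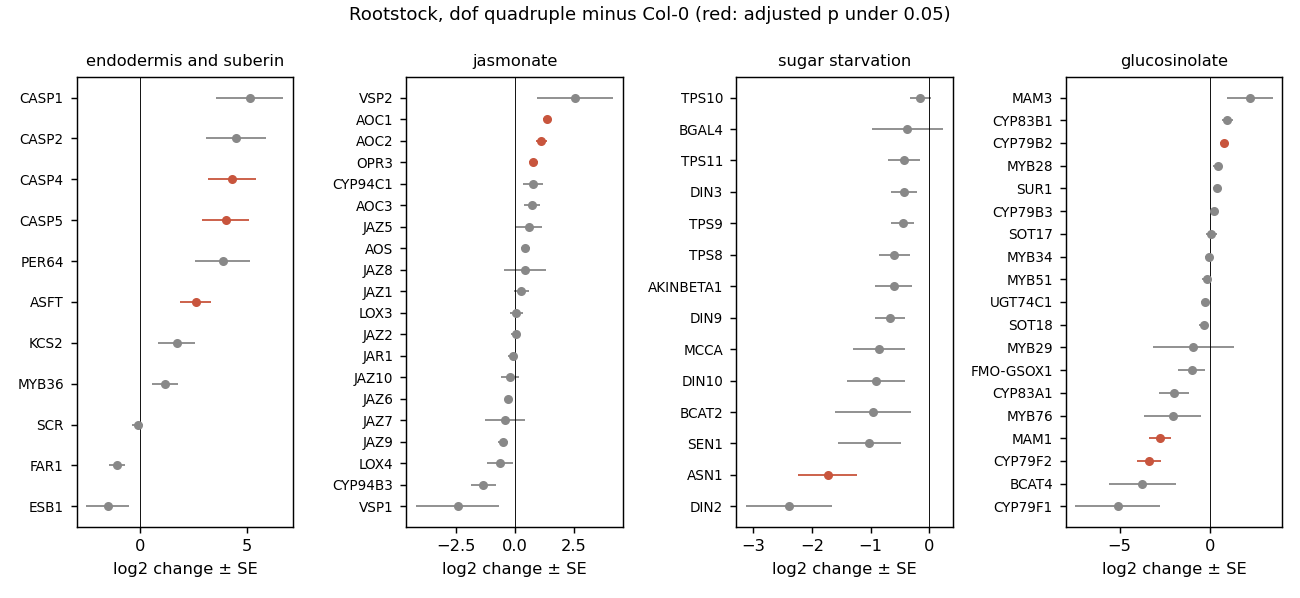
Log2 change in the rootstock (dof quadruple minus Col-0, points with SE bars) of the tested members of 4 gene lists, without 1 endodermis member that is not reported, in red where the adjusted p was under 0.05. Most endodermis members lie to the right of 0 with wide bars, all 14 sugar starvation members lie to the left of 0, and the other lists straddle it.

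Jasmonate is a hormone made within minutes of wounding. Of 20 tested jasmonate genes 3 were higher and 0 lower, against 1.64% and 2.09% of all tested loci. All 3 encode enzymes of its synthesis, and AOC1 and AOC2 lie side by side in a window dense in calls. The list's median was 0.17. AOC1, an allene oxide cyclase, had 30.04, 26.9 and 21.4 CPM in Col-0 and 69.2, 66.2 and 64.1 in dof quadruple (1.35 ± 0.15, adjusted p = 2.9e-07). AOC2, its close copy, rose from 8.36 ± 2.87 to 18.3 ± 1.09 CPM (1.13 ± 0.25, adjusted p = 0.00576). With a rootstock library left out, the adjusted p of AOC2 was as high as 0.0511. OPR3, which carries out the next step in the peroxisome, rose from 10.6 ± 0.049 to 18.3 ± 3.51 CPM (0.79 ± 0.20, adjusted p = 0.0161, and 0.0613 without Col-0 rootstock replicate 1). None of the 8 tested JAZ repressor genes passed.

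Of the genes switched on by sugar shortage 1 passed, where 3.73% of all tested loci did. All 14 tested members had a change below 0, with a median of -0.64. ASN1, asparagine synthetase of starved tissue, had 690.7, 800.4 and 1490 CPM in Col-0 and 362.2, 189.9 and 345.4 in dof quadruple (-1.73 ± 0.50, adjusted p = 0.0464). Without Col-0 rootstock replicate 1 the adjusted p was 0.0502, and 5 of the 6 fits that leave out a library called no member. A fit with no filter also called 0, and DESeq2 and a replicate block called 1 each. A fit of the 6 libraries alone called 4 lower, beside 330 loci lower in all. DIN2, a beta-glucosidase, had 273.1, 319.1 and 601.6 CPM in Col-0 and 139.1, 25.5 and 62.6 in dof quadruple, and did not pass (-2.40 ± 0.73, adjusted p = 0.0633). Summed over the list, Col-0 rootstocks had 6772 to 9057 CPM and dof quadruple 3009 to 5524 CPM, while rootstocks of erf114,115 had 9733 to 13376 CPM and those of anac071,096 had 5259 to 12140 CPM. The intact groups had 779 to 1410 CPM in Col-0 and 844 to 1027 CPM in dof quadruple, below the levels of both rootstocks.

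**Figure D4:**
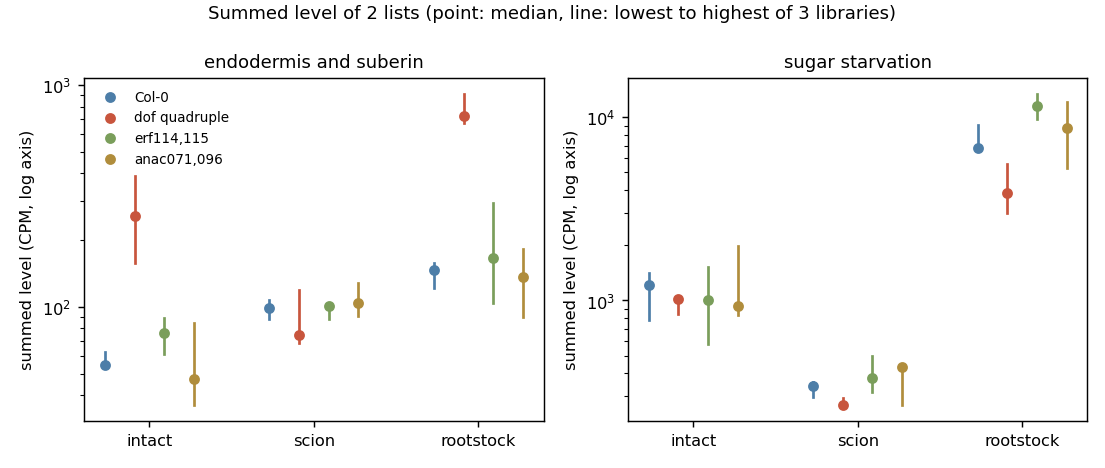
Summed level in CPM (log axis) of the endodermis and suberin list and of the sugar starvation list in 12 groups; points are medians and lines run from the lowest to the highest of 3 libraries. The dof quadruple rootstocks are highest for the first list, at 677.5 to 911 CPM, and lowest among rootstocks by median for the second.

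Of all tested loci 3.73% passed. PAD3, the last enzyme of camalexin synthesis, was the only one of 9 tested salicylate and defence genes to pass. It had 6.35, 3.95 and 3.86 CPM in Col-0 and 0.0523, 0 and 0.280 in dof quadruple (-5.42 ± 0.79, adjusted p = 3.9e-05). Among 19 glucosinolate genes 1 was higher and 2 were lower (1.64% and 2.09% of all tested loci), with a median of -0.24. CYP79B2, which starts indole glucosinolates from tryptophan, rose from 18.9 ± 2.87 to 32.5 ± 4.69 CPM (0.78 ± 0.18, adjusted p = 0.00787, and 0.0668 without Col-0 rootstock replicate 1). The lower ones belong to the methionine-derived branch. CYP79F2 had 0.5, 4.31 and 3.41 CPM in Col-0 and 0, 0.329 and 0.42 in dof quadruple (-3.37 ± 0.68), and MAM1 had 1.9, 11.04 and 13.5 against 0.157, 2.67 and 0.84 (-2.77 ± 0.63). The MAM1 libraries overlapped, since Col-0 replicate 1 was below dof quadruple replicate 2. The adjusted p of MAM1, 0.00819, rose to as much as 0.0575 with a rootstock library left out.

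Of 19 tested regulators of wounding and regeneration, RAP2.6 was lower, 0 were higher, and the median was -0.34. Over all tested loci 2.09% were lower and 1.64% higher. ERF115 had 28.2, 27.6 and 30.05 CPM in Col-0 and 17, 14.8 and 16.3 in dof quadruple, which did not pass (-0.84 ± 0.29, adjusted p = 0.112), and its groups did not overlap. ANAC096 stood at 51.6 and 33.6 CPM on average (adjusted p = 0.277), ANAC071 at 13.1 and 12.6 CPM (adjusted p = 0.981) and WIND1 at 563 and 445 CPM (adjusted p = 0.788).

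Vascular lists each held at most 1 call, where 3.73% of all tested loci were called (1.64% higher, 2.09% lower). A single call in lists this short is not a result about the list. RUL1, a receptor kinase of the cambium, was the 1 lower of 22 tested cambium genes, from 61.5 ± 9.9 to 32.8 ± 3 CPM (-0.91 ± 0.17, adjusted p = 0.00119). BAM3, a receptor kinase of developing phloem, was the 1 lower of 19 phloem genes. It had 107.4, 104.1 and 132.9 CPM in Col-0 and 67.4, 77.5 and 69 in dof quadruple (-0.69 ± 0.16, adjusted p = 0.00862). Leaving out a rootstock library raised that adjusted p to as much as 0.0763. ARF5, or MONOPTEROS, which activates TMO6, was the 1 lower of 13 auxin genes, from 60.5 ± 2.31 to 38.5 ± 2.08 CPM (-0.65 ± 0.19, adjusted p = 0.0444, and 0.113 without Col-0 rootstock replicate 1). In the rootstocks of the other mutants these genes also averaged below Col-0. RUL1 averaged 40.8 CPM in erf114,115 and 30.9 CPM in anac071,096 rootstocks, BAM3 averaged 59.8 and 36.3 CPM, and ARF5 averaged 22.8 and 41 CPM. The cambium markers WOX4 and PXY, at 20.6 and 47.8 CPM in Col-0 and 16.8 and 45.6 in dof quadruple, did not pass (adjusted p = 0.5 and 0.939).

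No member passed among 20 xylem and secondary wall genes, 14 genes of cytokinin and the TMO5-LHW pathway, 15 of DNA replication, 19 of mitosis, 9 wall integrity receptors, 11 hypoxia genes and 10 flavonoid genes. Over all tested loci 3.73% passed. LHW itself was at 42.1 ± 9.93 CPM in Col-0 and 40.1 ± 5 in dof quadruple (adjusted p = 0.961). In the DNA replication list 13 of 15 changes were above 0, with a median of 0.25 and a summed level of 172 to 184 CPM in Col-0 and 206 to 214 CPM in dof quadruple. CDKB2;1, a mitotic kinase, stood at 37.1 ± 4.32 and 35 ± 5.22 CPM.

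Among 28 genes of wall synthesis and remodelling, GH9B3 was lower and PME17, a pectin methylesterase, was higher. Over all tested loci 2.09% were lower and 1.64% higher, which holds beside each list of this paragraph. PME17 had 0.5, 3.1 and 0.224 CPM in Col-0 and 22.9, 7.24 and 6.02 in dof quadruple (3.2 ± 0.87, adjusted p = 0.0341, and 0.147 without Col-0 rootstock replicate 1). ACO4, which makes ethylene, was the 1 lower of 15 ethylene genes, from 223 ± 38 to 128.5 ± 35.7 CPM (-0.79 ± 0.21, adjusted p = 0.0233). Its adjusted p was as high as 0.21 among the fits that leave out a rootstock library. STM, the meristem homeobox gene, was 1 of 2 tested shoot meristem genes and was called higher (adjusted p = 0.0405, and 0.106 without Col-0 rootstock replicate 1), but at levels of 5 counts in Col-0 and 54 in dof quadruple.

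Block differences were often shared with other tissues of the mutant. In intact hypocotyls 893 loci were called (4.59%), 197 of them in the block (15%) and 696 outside it (3.83%). In scions 292 were called (1.5%), 106 in the block (8.05%) and 186 outside it (1.02%). Of the 179 block calls in the rootstock, 118 were also called in the same direction in intact tissue, which is 65.9% of the rootstock calls and 59.9% of the intact calls. With scions 82 were shared, 45.8% of the rootstock calls and 77.4% of the scion calls. Outside the block, 172 of 548 rootstock calls were shared with intact tissue (31.4%, and 24.7% of the intact calls) and 106 with scions (19.3%, and 57.0% of the scion calls).

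**Figure D5:**
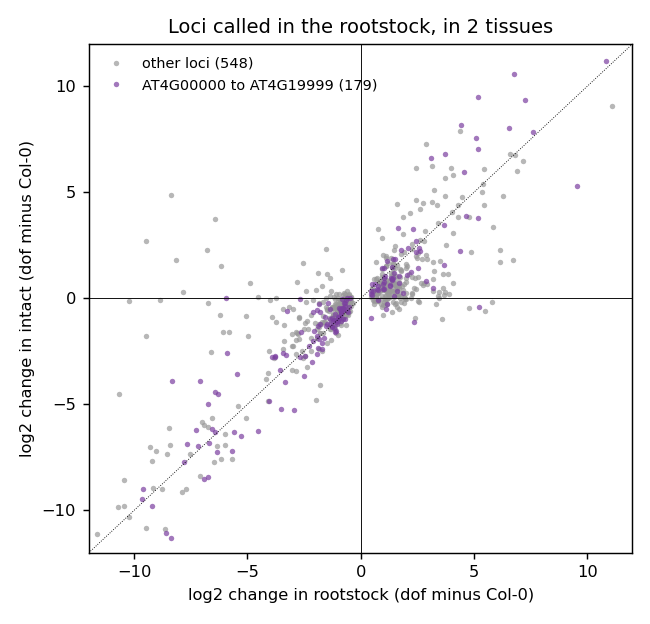
Log2 change (dof quadruple minus Col-0) in intact hypocotyls against that in rootstocks, for 548 loci outside the chromosome 4 block (grey) and 179 in it (purple), all called in the rootstock. Purple points follow the dotted line of equal change, and many grey points near 0 on the vertical axis were called in the rootstock without a like change in intact tissue.

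A missing call in another tissue does not show that the effect differs, so the difference was tested itself. The genotype effect in the rootstock differed from that in intact tissue at 175 loci (0.899%), 32 with a more positive effect in the rootstock (0.164%) and 143 with a more negative one (0.734%). It differed from the scion effect at 30 loci (0.154%), 26 more positive (0.133%) and 4 more negative (0.0205%), and at 50 with a replicate block. Without Col-0 rootstock replicate 2 the scion difference held at 15 loci, and without dof quadruple rootstock replicate 1 at 18. Of the differences from intact tissue 17 lay in the block (1.29%), 6 more positive (0.456%) and 11 more negative (0.836%). Outside it were 158 (0.87%), 26 more positive (0.143%) and 132 more negative (0.727%). The differences from scions comprised 6 in the block (0.456%), all more positive, and 24 outside it (0.132%), 20 more positive (0.11%) and 4 more negative (0.022%). Of the 179 block calls 6 differed from intact and 5 from scion tissue, and of the 548 others 36 and 18.

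AGP31 was among the genes whose difference was larger in the rootstock. Its intact levels were 62.6 ± 14.2 CPM in Col-0 and 102.2 ± 23.7 in dof quadruple, and the effects differed by 1.98 ± 0.40 (adjusted p = 0.00691). In the rootstock the means were 9.61 CPM in Col-0 and 61.6 CPM in dof quadruple. CCH had 232.2 and 253.1 CPM in the intact genotypes and 28.1 and 97.1 CPM in the rootstocks (difference 1.66, adjusted p = 0.0164). PUT1 stood at 6.23 CPM in intact Col-0 and 4.35 CPM in intact dof quadruple, then 25.4 and 2.4 CPM in the rootstocks (difference -2.90 ± 0.46, adjusted p = 0.000378).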

How the data were processed

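RNA was measured in 36 libraries of polyA RNA. Raw counts per locus were deposited by the authors as whole numbers, made with fastp, HISAT2 on TAIR10 and HTSeq, per the submitters' processing notes. How strand was handled is not given in the sources used here. Libraries were made with a NEBNext Ultra kit and 13 cycles of PCR, per the labels' protocols. The table had 36 columns of libraries, every one in use, with 0 unused columns and 0 rows without a locus.

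All libraries were fitted together as 12 groups with edgeR 4.0.16 in R 4.3.3 (TMM factors of 0.854 to 1.05 in the 6 rootstock libraries, a minimum count of 10, robust quasi-likelihood test, Benjamini-Hochberg adjustment), with 24 residual degrees of freedom and a common biological variation of 25.8%. Effects in 2 tissues were compared by the difference of contrasts. SE is the log2 change over the root of its F. DESeq2 1.42.0, other scalings, no filter, a replicate block, the compared groups alone, removal of the loci counted only in Col-0 rootstock replicate 1 and fits without each rootstock library were tried. The tests were tried on simulated counts. No list was tested; the 26 lists hold 422 loci, 421 of them in the table, 401 named alike in the TAIR10.1 reference and 363 tested. Members, lists and rules were chosen with earlier results of these data known.

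Named genes were the 4 DOF genes; up to 15 (in the block 5) per direction with the largest changes that passed in the full fit and each leave-one-out fit, had a symbol, at least 10 CPM in a group and no overlap; and up to 4 passing members of each list, or else its member with the highest level. Levels of named genes are in CPM, which depend on transcript length. Single genes were not set against each other by level, except to choose a list's member with the highest level. That choice and the sums over lists therefore also weigh transcript length. Replicates of a group differed by more than sampling noise. The replicate numbers are in the labels. Deviations of same-numbered rootstocks of the 2 genotypes correlated at 0.156, 0.272 and 0.285, so the numbers may pair samples. The main fit did not use this pairing, and its p-values treat the libraries as unpaired. A fit with a replicate block, which uses it, called 944 loci against 727, and 745 against 548 outside the chromosome 4 block. Counting intervals (95%, exact) and 0 counts cover counting error only, since copies made in PCR could not be recognised, and 0 counts allow up to 3 counts of a library, 0.11 to 0.168 CPM here. Coordinates are those of TAIR10.1, 1-based. The single values of 1 endodermis gene are not reported here, while counts and sums over that list include it.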

Additional observations from a re-analysis of the deposited data

Results flagged for a closer look

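The results below were singled out because the genotype effect, dof quadruple against Col-0, differed between the rootstock and another tissue by a test of the difference itself (edgeR, adjusted over all tested loci). Each value is the rootstock effect minus the other, on the log2 scale.

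Against intact hypocotyls, the effect in the rootstock was more positive for GASA6 (3.3, adjusted p = 0.0102), AGP31 (1.98, 0.00691), CCH (1.66, 0.0164) and NSP4 (1.52, 0.0485). It was more negative for PUT1 (-2.90, 0.000378), DOF2.1 (-2.63, 2.6e-05), AGP2 (-1.76, 0.0193), UGT74F2 (-1.46, 0.00848), SWEET17 (-1.46, 0.045), MIK2 (-1.50, 0.0486) and BAM3 (-0.90, 0.043). MIK2, a wall integrity receptor in the chromosome 4 block, was higher in intact dof quadruple (145.9 CPM against 52.1 CPM in Col-0) and averaged 393.9 and 399.1 CPM in the rootstocks.

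Against scions, the effect was more positive for ATPMEPCRD (2.43, adjusted p = 0.0203), NSP4 (1.97, 0.019), BGAL5 (1.94, 0.0106), AOC2 (1.93, 0.0106), CYP79B2 (1.86, 0.000124) and CCH (1.77, 0.0314), and more negative for HCA2 (-1.39, 0.0171). CYP79B2 was higher in the mutant rootstock and lower in the mutant scion (44.9 CPM against 94.8 CPM in Col-0).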

How the results depend on the processing

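The call counts (727 in all, 179 in the block, 548 outside, 175 and 30 for the differences from intact and scion tissue) stayed within 1.5 times under DESeq2 size factors, upper-quartile scaling, no filter and removal of the loci of Col-0 rootstock replicate 1. DESeq2 gave 1015 calls in all, but 295 for the difference from intact tissue and 85 for that from scions. The compared groups alone also gave 85 for scions. A replicate block gave 50 for scions and 944 in all, and it changed the call of none of the 74 named genes. Leaving out 1 rootstock library gave 376 to 614 calls in all, 115 to 137 in the block, 261 to 479 outside, 125 to 195 for intact and 15 to 35 for scions. The lowest were without dof quadruple replicate 2 (all loci, block, others) and Col-0 replicate 2 (both differences). Of the 74 named genes, 7 lost their call with no filter, 6 in the compared groups alone, 2 with DESeq2 and 1 with upper-quartile scaling (ARF5). Leaving out 1 rootstock library cost 7 to 11 of them their call, the most without Col-0 replicate 3. Genes named by size of change had been required to keep their call in these fits. No call of a named gene reversed. Changes near 0 changed sign: MIK2 to 0.0051 with upper-quartile scaling. Without 1 library MIK2 ran from -0.28 to 0.27, CDKB2;1 from -0.20 to 0.014, GBSS1 from -0.24 to 0.23, CHI from -0.033 to 0.20 and LHW from -0.22 to 0.12. The causes were not tested. Depth limits DOF6, AOP3 and STM, which rest on few counts in a group.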

Other observations

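The following genes had the highest level of their own list, in lists where no gene passed. RCA, rubisco activase, had 7655 ± 362 CPM in Col-0 and 6720 ± 768 CPM in dof quadruple (adjusted p = 0.668). KCS6, which lengthens cuticular wax chains in the epidermis, had 491.6, 401.5 and 392.7 CPM in Col-0 and 527.5, 674.2 and 553.4 in dof quadruple (adjusted p = 0.313), with every mutant library above every Col-0 library. FRA8, a xylan synthesis gene, stood at 61.7 ± 7.59 and 42.4 ± 7.55 CPM (adjusted p = 0.519). LBD41, a hypoxia-induced gene, stood at 20.06 ± 4.11 and 11.9 ± 6.19 CPM (adjusted p = 0.451), and GBSS1, the granule-bound starch synthase, at 15.1 ± 5.19 and 15.2 ± 4.16 CPM (adjusted p = 0.996).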
